A study of Mus musculus with 298 samples.

Results

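In the thoracic sympathetic ganglion of the mouse, 85 of 298 single cells carry the cell type label Unclassified in the submitters' annotation, and these 85 cells, chosen by that label alone, are described here against the cells labelled Noradrenergic1 to Noradrenergic5, 143 from females and 50 from males. The mice came from a cross of the R26R-Tomato reporter with the Wnt1-Cre driver, which is active in neural crest descendants, and the reporter served to show the ganglia against other tissue; all groups share both alleles. Cells were caught on 24 microfluidic chips from animals of postnatal day 11 (P11) to P38, and the other 20 cells were labelled Ach1, Ach2 or Glutamatergic. The labels name no animals. A collection, meaning all cells of the same sex and age, was therefore the replicate, and a collection may hold pooled animals. The p-values of single genes come from a fit that borrows spread from other genes. They therefore do not measure a gene's own spread between collections alone, and very small ones should not be read that way. How the cells came to be left unclassified is not given in the sources used here; if the identities were drawn from these same RNA counts, tests of unclassified against labelled cells describe that assignment as well as the cells.

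As background, noradrenergic sympathetic neurons make noradrenaline through tyrosine hydroxylase (Th), aromatic amino acid decarboxylase (Ddc) and dopamine beta-hydroxylase (Dbh), store it with the vesicular transporter Slc18a2 and take it back up with the noradrenaline transporter Slc6a2. Most of them also release neuropeptide Y (Npy). Their cell bodies are wrapped by satellite glia, which are rich in Apoe and Fabp7, and immediate-early genes such as Fos and Jun are switched on within minutes by activity, growth factors and the handling of tissue.

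Each of the 85 unclassified cells contained the noradrenergic markers: Th, Dbh, Slc6a2 and Npy were all detected. The glial marker Apoe was detected in 72 of the 85 cells (84.7%), against 56% of noradrenergic cells. Satellite glial and immediate-early genes were the 2 lists with the most genes called higher, while most genes of the noradrenergic list did not pass the test.

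The deposited values were read or molecule counts of 16892 genes in each cell, with totals of 7225 to 81589 per cell over the noradrenergic and unclassified cells. Unclassified cells held fewer counts. Their totals ran from 7233 over a median of 22977 to 47881, and those of noradrenergic cells from 7225 over 37379 to 81589. In the 7 collections with both kinds of cell, the mean log2 total was lower in unclassified cells in 7 of 7, by 0.78 on average (a ratio of 0.582), and the two-sided exact sign-flip test gave p = 0.0156, the smallest that 7 pairs allow. With the 5 collections that hold at least 5 cells of each kind the difference was -0.69 and p = 0.0625, again the smallest possible. Genes detected per cell had medians of 5629 and 6739. Their log2 difference was -0.30 (exact sign-flip p = 0.0156), and it turned to 0.03 (exact p = 0.234) once each cell was thinned to 10000 counts. What part depth has in the results below was not tested, except where a value from cells of like depth is given.

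Unclassified cells were spread unevenly over collections and chips. They made up 28.5% of all cells (95% exact binomial interval 23.5 to 34%, counting error only). In P33 females they were 29 of 53 cells, or 54.7% (40.4 to 68.4%), and in P29 males 24 of 52, or 46.2% (32.2 to 60.5%). In P31 females they were 18 of 106, or 17% (10.4 to 25.5%), in P30 females 5 of 28, or 17.9% (6.06 to 36.9%), and in P38 males 6 of 36, or 16.7% (6.37 to 32.8%). These intervals cover counting error within a collection only, and differences between collections were not tested. P11 females gave 1 of 10 cells, P16 females 2 of 5, and the collections P20 female, P30 male and P34 female gave 0 of 1, 0 of 3 and 0 of 4, too few to set a share.

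Of the 85 cells, 22 came from a single chip of P33 females, 1772099-228, where they were 22 of 42 cells (52.4%). The other chips of that collection held 7 of 11 (63.6%, 30.8 to 89.1%). In P29 males the 4 chips held 1 of 5 to 7 of 12 cells. In P31 females the 4 chips held 2 of 22 to 7 of 25. Chips were nested in collections, and day, sex and chip cannot be told apart. Without chip 1772099-228 the share over all chips was 63 of 256 cells, or 24.6%.

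**Figure D1:**
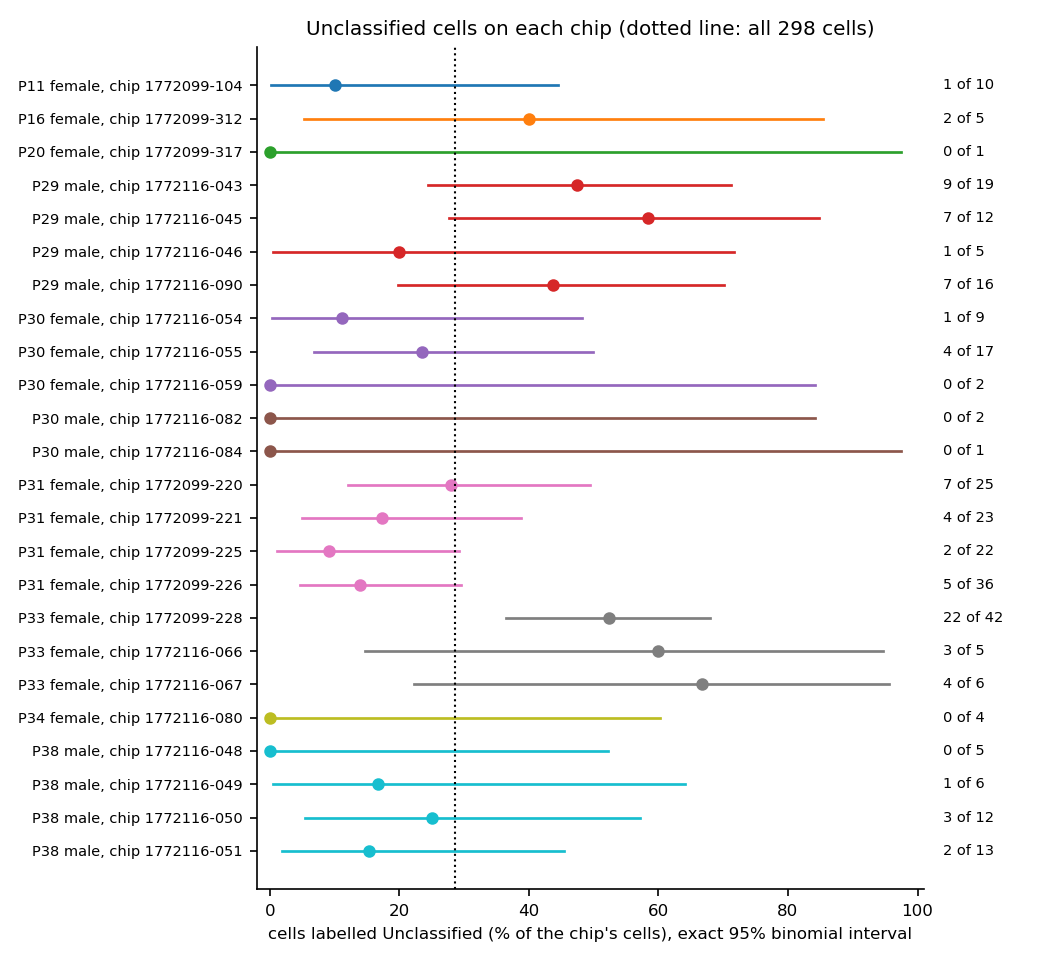
Share of cells labelled Unclassified on each of the 24 chips, in percent, with exact 95% binomial intervals and chips grouped and coloured by collection; the numbers at the right are unclassified cells of all cells on the chip. The 3 chips of P33 females lie at 52.4% or more, whereas the 4 chips of P31 females lie at 28% or less.

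Each cell was then compared with the mean profile of every identity, built from the other collections, by Spearman correlation over the 1000 most variable genes. Of the 85 unclassified cells, 46 were nearest to Noradrenergic3, 16 to Noradrenergic2, 10 to Noradrenergic5, 8 to Noradrenergic4, 3 to Noradrenergic1 and 2 to Ach2, and 0 to Ach1 or Glutamatergic. Noradrenergic3 was the nearest profile for most unclassified cells of P33 females (19 of 29) and P38 males (4 of 6), and for 8 of 18 in P31 females and 11 of 24 in P29 males. Noradrenergic3 is also the most numerous identity, with 53.4% of the noradrenergic cells. Under the same procedure 155 of 186 noradrenergic cells were nearest to their own label.

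The match was weaker than in labelled cells. The highest correlation of an unclassified cell ran from 0.388 over a median of 0.685 to 0.789, against 0.326, 0.792 and 0.869 in noradrenergic cells. Over 7 collections the mean difference was -0.11 (SD 0.0624), lower in 6 of 7, with a two-sided exact sign-flip p of 0.0312. P30 females were the exception, at 0.0066. P16 females gave the largest difference, -0.20, from 2 unclassified cells and 1 noradrenergic cell. P11 females, at -0.11, held 1 unclassified cell. Without P16 females the mean difference was -0.096 (exact sign-flip p = 0.0625). The 5 collections with at least 5 cells of each kind were not tested alone for this measure. Among the unclassified cells, 35 of 85 lay below the 5th percentile of noradrenergic cells. After thinning all cells to 10000 counts the difference was -0.053 (exact p = 0.0312), a reduction of more than 1.5 times.

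**Figure D2:**
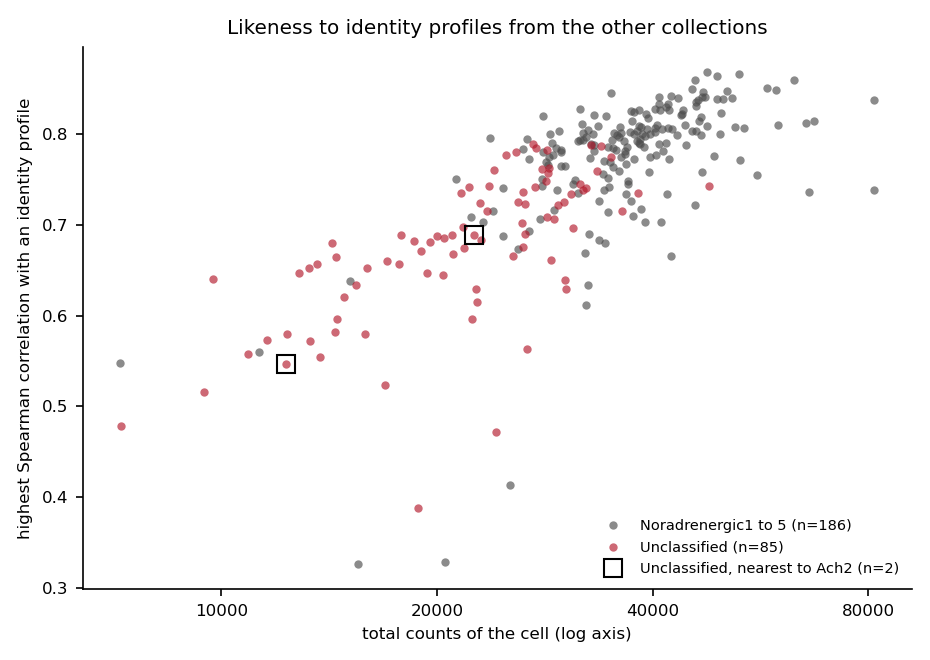
Highest Spearman correlation of each cell with an identity profile (vertical axis) against its total counts (horizontal axis, log scale), for 85 unclassified and 186 noradrenergic cells. Unclassified cells lie lower and further to the left, with medians of 0.685 and 22977 counts, and the 2 cells nearest to Ach2 are boxed.

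Genes were tested on counts summed over the cells of each kind within the 5 collections of at least 5 cells of each kind, with the collection as a block (edgeR's quasi-likelihood test, Benjamini-Hochberg adjustment, calls at an adjusted p under 0.05). Of 11659 genes tested, 168 were called higher in unclassified cells (1.44%) and 130 lower (1.12%), 2.56% in either direction, and the median log2 fold change over all genes was -0.02. Levels below are counts per 10000 of the cell's or the collection's total, and values by collection follow the order P30 female, P31 female, P33 female, P29 male and P38 male. The SE of a log2 fold change was derived from the test statistic, so it adds nothing to the p-value.

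The catecholamine genes stood close to the noradrenergic level. Of the 12 genes on that list 0 were called higher and 1 lower, the list median was -0.21, and 10 of the 12 log2 fold changes were below 0. Th (chromosome 7, 142892752 to 142931128, GRCm38) had levels of 25.6, 18.5, 24.9, 26.1 and 24.6 in unclassified cells and 23.5, 23.1, 27.6, 25.8 and 27.9 in noradrenergic cells. The groups overlapped, and P31 females alone lay below the whole noradrenergic range. The log2 fold change of Th was -0.18 (SE 0.081, adjusted p = 0.288).

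Dbh (chromosome 2, 27165233 to 27183200), which turns dopamine into noradrenaline, stood at 16.2, 20.0, 17.5, 19.4 and 18.1 against 19.1, 19.3, 18, 22.1 and 20.0, again overlapping (log2 fold change -0.19, SE 0.082, adjusted p = 0.292). Slc6a2 (chromosome 8, 92960079 to 93001667) stood at 25.4, 28.2, 26.6, 30.3 and 27.4 against 30.7, 33.3, 29.6, 32.3 and 29.8. It was the lower of the pair in each of the 5 collections, yet missed the threshold at a log2 fold change of -0.25 (SE 0.080, adjusted p = 0.0539). Qdpr, which recycles the cofactor of tyrosine hydroxylase, was the gene called lower (-0.37, SE 0.11, adjusted p = 0.0238); that call was lost without chip 1772099-228 and without any of P31 female, P33 female, P29 male or P38 male. Transcription factors of the sympathetic lineage showed no call in 15 genes tested, with a list median of 0.08: Hand2 was at 0.11 (adjusted p = 0.776).

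**Figure D3:**
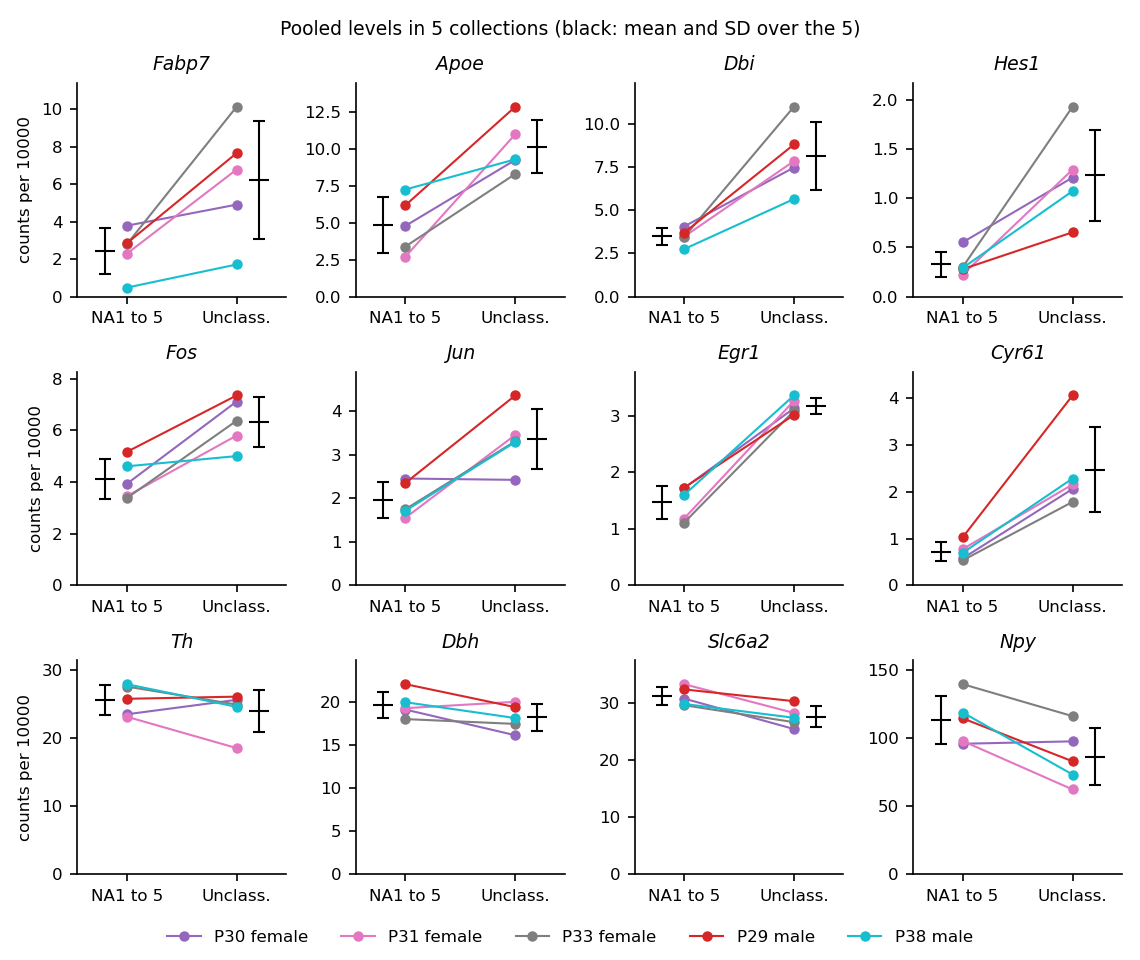
Pooled levels (counts per 10000) of 12 genes in noradrenergic (NA1 to 5) and unclassified cells, with lines joining the 2 kinds of cell of a collection and black bars giving the mean and SD over 5 collections. The glial genes Fabp7, Apoe and Dbi and the genes Hes1, Egr1 and Cyr61 are higher in unclassified cells in each of the 5 collections, whereas Th and Dbh overlap between the groups.

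Satellite glial genes were higher in unclassified cells. Of 27 genes on the satellite glia and Schwann cell list 24 were tested, 12 were called higher and 0 lower, and the list median was 1.11, beside -0.02 over all genes. Dbi, an acyl-CoA binding protein abundant in glia, stood at 7.47, 7.84, 11, 8.80 and 5.65 against 4.05, 3.47, 3.44, 3.69 and 2.74, without overlap (log2 fold change 1.16, SE 0.097, adjusted p = 2.0e-29). Dbi and Sostdc1 (1.57, SE 0.22, adjusted p = 1.5e-09) were both called under each of the 18 alternative settings.

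Apoe (chromosome 7, 19696109 to 19699188), the lipid carrier, stood at 9.25, 11, 8.30, 12.8 and 9.29 against 4.78, 2.70, 3.39, 6.18 and 7.25, which did not overlap. Fabp7 (chromosome 10, 57784881 to 57788450), a fatty acid binding protein of satellite glia, stood at 4.91, 6.78, 10.1, 7.66 and 1.71 against 3.78, 2.29, 2.79, 2.84 and 0.479. It was higher in each pair, but the groups overlapped through P38 males, which were low in both kinds of cell. The log2 fold changes were 1.1 for Apoe (SE 0.14, adjusted p = 1.5e-05) and 1.35 for Fabp7 (SE 0.11, adjusted p = 3.6e-32). These adjusted p-values were unstable while the fold changes were not. Over the 18 alternatives the log2 fold change ran from 0.87 to 1.56 for Apoe and from 1.01 to 1.57 for Fabp7, and the edgeR or DESeq2 adjusted p from 8.5e-33 to 1.0 and from 2.8e-46 to 1.0. The Apoe call was lost in 7 alternatives and the Fabp7 call in 3. Without chip 1772099-228 both calls were lost (1.26 and 1.39, adjusted p of 0.617 and 0.501), yet without the whole P33 female collection, which includes that chip, both held (1.07 and 1.2, adjusted p of 5.0e-11 and 1.6e-15). The Apoe call was also lost without P30 female (1.16, adjusted p = 0.293). Why the p-values vary was not tested. In the contrasts with single identities, neither gene was called against any identity. There Apoe ran from 0.01 against Noradrenergic1 to 1.57 against Noradrenergic2 (edgeR adjusted p from 0.168 to 0.996). Fabp7 ran from 1.11 against Noradrenergic5 to 1.66 against Noradrenergic2 (adjusted p from 0.0541 to 0.553).

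The lineage factor Sox10 rose by 1.78 (SE 0.49, adjusted p = 0.0185) and S100b by 1.11 (SE 0.27, adjusted p = 0.0048), both at levels under 1 count per 10000. The Sox10 call was lost without chip 1772099-228 and without P31 female, P33 female or P29 male, and the S100b call without that chip, P33 female or P29 male. Mbp, a myelin gene, was called at 0.55 (adjusted p = 0.0482), a call lost without chip 1772099-228 and without any collection other than P31 female. Gpm6b and Sparcl1, which are also strong in glia but were not on the list, rose by 1.32 and 1.35 (adjusted p of 6.3e-18 and 7.8e-15), and Hes1, an effector of Notch signalling, by 1.94 (SE 0.19, adjusted p = 1.6e-21). Sepp1, which encodes a selenium carrier, rose by 1.2 (adjusted p = 3.3e-10). It was called higher against Noradrenergic2, Noradrenergic3 and Noradrenergic4. Against Noradrenergic1 and Noradrenergic5 Sepp1 was at -0.08 and 0.65 (adjusted p of 0.960 and 0.405).

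Glial counts were also present in labelled neurons. Apoe and Fabp7 were both detected in 77.6% of unclassified and 44.6% of noradrenergic cells, and neither in 14.1% and 39.9%. In cells thinned to 10000 counts, Fabp7 was detected in 75.6% of 82 unclassified cells and 40.1% of 192 noradrenergic cells, and Apoe in 81.7% and 47.9%. Summed over the list, unclassified cells held a median of 39.3 counts per 10000 (1.03 to 102.6), against medians of 7.06 to 14.1 in Noradrenergic1 to Noradrenergic5. The cells labelled Ach1, Ach2 and Glutamatergic had medians of 38.6, 43.9 and 45.0 (8, 8 and 4 cells), near that of the unclassified cells; these differences were not tested.

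Above the 95th percentile of noradrenergic cells (53 counts per 10000) lay 22 of the 85 unclassified cells, or 25.9%. They were 11 of 29 in P33 females, 8 of 24 in P29 males, 1 of 18 in P31 females, 1 of 5 in P30 females and 1 of 6 in P38 males. At the 99th percentile the share was 9.41%. The median of the list was higher in unclassified than in noradrenergic cells on 17 of the 18 chips that held both. Without chip 1772099-228, 5 of the 24 genes tested were called higher, beside 79 of 11441 over all genes, and the list median was 1.08. In cells of 15000 to 35000 counts (63 unclassified and 65 noradrenergic, median totals 25556 and 29832), 4 of 23 were called, with a median of 1.01. That setting was chosen after seeing the data, and over all genes 24 of 10175 were called higher in it.

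**Figure D4:**
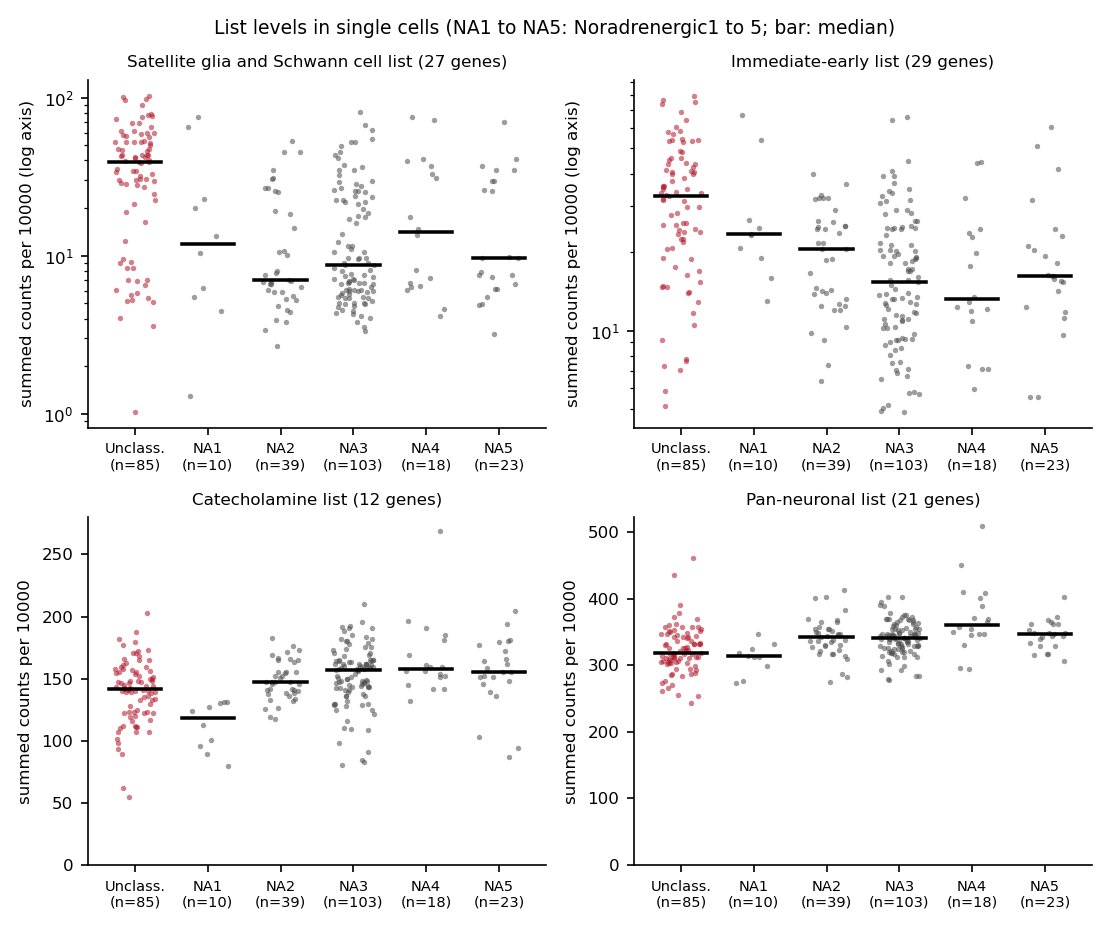
Summed level of 4 gene lists in each cell (counts per 10000; log axis in the upper panels), for unclassified cells and the 5 noradrenergic identities (NA1 to NA5), with bars at the medians. The glial median is 39.3 in unclassified cells and at most 14.1 in a noradrenergic identity. The catecholamine median is 141.9 in unclassified cells, against 118.1 in NA1 and 147.3 to 157.7 in NA2 to NA5.

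Immediate-early genes were the second list that was higher. Of its 28 genes tested 12 were called higher and 0 lower, with a list median of 0.64. Jun (chromosome 4, 95049034 to 95052222) had levels of 2.42, 3.45, 3.30, 4.36 and 3.29 against 2.45, 1.55, 1.75, 2.35 and 1.71. It was higher in 4 of 5 collections, P30 females being the exception, with a log2 fold change of 0.77 (SE 0.11, adjusted p = 8.7e-09), and was called under each of the 18 alternatives. Fos (chromosome 12, 85473890 to 85477273), its partner in the AP-1 complex, stood at 7.11, 5.80, 6.37, 7.35 and 5.00 against 3.92, 3.45, 3.37, 5.16 and 4.61, higher in each pair with a small overlap (0.57, SE 0.097, adjusted p = 1.5e-06).

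Egr1, a zinc finger factor, stood between 3.01 and 3.36 in the 5 unclassified groups and between 1.11 and 1.73 in the noradrenergic groups, without overlap (1.09, SE 0.12, adjusted p = 1.4e-16). Cyr61, a secreted matrix protein induced by serum, stood at 2.06, 2.16, 1.79, 4.07 and 2.29 against 0.577, 0.774, 0.534, 1.03 and 0.696 (1.66, SE 0.14, adjusted p = 4.4e-29). P29 males were the high group in both kinds of cell. Egr2 rose by 1.71 (SE 0.40, adjusted p = 0.0023) and Zfp36, which speeds the decay of AU-rich messages, by 1.34 (SE 0.24, adjusted p = 7.8e-06). The Zfp36 call was lost without P31 female. Atf3, which is both an immediate-early and an injury gene, was at 0.03 (adjusted p = 0.987), and Klf6, Dusp1 and Btg2 were not called.

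Summed over the list, unclassified cells held a median of 32.9 counts per 10000 (5.13 to 79.7) and noradrenergic cells 16.6 (4.87 to 67.5). The median was 40.7 against 20.4 in P29 males, 33.6 against 16.2 in P31 females, 24.6 against 13.1 in P33 females and 28.3 against 24.5 in P30 females, whereas in P38 males it was 16 against 20.4. By chip it was higher in unclassified cells on 16 of 18. Among the noradrenergic identities the list median ran from 13.2 in Noradrenergic4 to 23.4 in Noradrenergic1. Cells labelled Ach1, Ach2 and Glutamatergic had medians of 25.8, 38.1 and 63.7 (8, 8 and 4 cells). Ach2 and Glutamatergic cells thus lay above the unclassified median of 32.9, and Ach1 cells below it. These differences between labels were not tested. Above the 95th percentile of noradrenergic cells (41.3) lay 26 of the 85 cells, or 30.6%, and 11 of these 26 were from P29 males; at the 99th percentile the share was 7.06%. In cells of 15000 to 35000 counts, 1 of 27 genes was called (Jun), with a list median of 0.58. Over all genes 24 of 10175 were called higher in that setting. Without P31 female, 5 of the list were called, beside 77 called higher of 10765 over all genes.

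The promoters of the called immediate-early genes were searched for the cyclic AMP response element (TGACGTCA) and for the CArG box, the site of serum response factor; both motifs read the same on either strand. RefSeq windows on GRCm38.p6, from 250 bases before to 50 after a start, were searched for 10 of the 12 called genes. Egr1 was left out by a rule on gene position, and Cyr61 had no window under its symbol. The counts below therefore say nothing about Egr1 or Cyr61. For the cyclic AMP response element only the exact letters TGACGTCA were counted. Variants of these letters were not searched for, so a count of 0 does not show that a promoter lacks the element. Counted by gene, with a match in any of its windows, the exact letters TGACGTCA were in 0 of the 10 genes and in 2.03% of all genes. The CArG box was in 2 of the 10, Egr2 and Zfp36, and in 1.81% of all genes. Counted by window, the CArG box was in 5 of the 14 windows of these genes and in 1.63% of 32851 windows of all genes. Of those 5, 4 belong to Egr2, which has 5 windows. The exact letters TGACGTCA were in 1.79% of all windows. The 150 bases upstream of a start of each are shown 5′ to 3′ on the gene's strand, with the CArG box in capitals, since they are the windows that hold the match. The Egr2 window is chr10:67537719-67537868 on the plus strand, with the box 72 bases before the start, and the Zfp36 window is chr7:28379229-28379378 on the minus strand, with the box 58 bases before the start.
Egr2: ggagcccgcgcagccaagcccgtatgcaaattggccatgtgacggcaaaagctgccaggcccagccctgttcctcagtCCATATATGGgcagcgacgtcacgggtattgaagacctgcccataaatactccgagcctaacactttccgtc
Zfp36: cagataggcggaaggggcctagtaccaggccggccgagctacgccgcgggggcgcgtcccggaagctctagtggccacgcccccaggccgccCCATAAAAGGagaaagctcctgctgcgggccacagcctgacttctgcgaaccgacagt

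Few genes of the other stress lists were called. Of 17 heat shock proteins and DnaJ chaperones, 2 were called higher and 0 lower, and the list median was -0.21, with 14 of 17 log2 fold changes below 0. The median of their summed level was lower in unclassified cells on 15 of 18 chips, and 9 of 85 cells (10.6%) lay below the 5th percentile of noradrenergic cells. The called genes were the inducible chaperones Hspa1a (1.45, SE 0.30, adjusted p = 0.00028) and Hspa1b (1.27, adjusted p = 0.013), near-identical copies whose counts may be split arbitrarily. The Hspa1b call was lost without chip 1772099-228, P31 female, P33 female or P29 male. Hspa1a stood at 0.427, 0.399, 0.458, 0.635 and 0.214 against 0.231, 0.115, 0.0651, 0.355 and 0.047, higher in each pair and overlapping between groups, and its call was lost without P33 female. The abundant constitutive chaperones were not called: Hspa8 was at -0.19 and Hsp90ab1 at -0.10 (adjusted p of 0.252 and 0.687).

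Of 13 axon injury and unfolded protein response genes tested, 3 were called higher and 0 lower, with a median of 0.16 and 11 of 13 above 0. The summed level was higher in unclassified cells on 14 of 18 chips by median, and 13 of 85 cells (15.3%) lay above the 95th percentile of noradrenergic cells. Atf5, a transcription factor of the mitochondrial stress response, rose by 0.65 (SE 0.15, adjusted p = 0.0027), higher in 5 of 5 collections. Stmn4, a neuronal tubulin regulator, rose by 0.42 (adjusted p = 0.038), a call lost without that chip, P31 female, P29 male or P38 male. Il6, a cytokine, was called at 2.35 (adjusted p = 0.00028) from 43 counts in 6 unclassified cells, and that call was lost without P31 female. Cxcl10, a chemokine on no list, rose by 1.8 (SE 0.18, adjusted p = 3.1e-20), with levels of 1.42, 2.09, 0.949, 1.14 and 0.929 against 0.590, 0.517, 0.195, 0.393 and 0.141 and no overlap. Arg1, arginase, rose by 0.95 (adjusted p = 1.2e-10), but in the contrast with Noradrenergic3 it was at 0.48 (adjusted p = 0.925).

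Several secretory genes of the neuron were lower against the pooled noradrenergic cells, but not against every identity. Of 17 neuropeptide, granin and processing genes tested, 6 were called lower (Npy, Gal, Chga, Chgb, Scg2 and Scg5) and 1 higher (Vip), with a list median of -0.25. Scg2, a granin of dense-core vesicles, stood at 7.90, 5.84, 8.11, 9.29 and 9.07 against 9.22, 10.9, 9.99, 10.8 and 12.4, lower in each pair and nearly separate (-0.50, SE 0.090, adjusted p = 7.0e-06). Chgb was at -0.48 (SE 0.11, adjusted p = 0.00094), also lower in 5 of 5 collections. Against single identities Chgb was lower against Noradrenergic2 and Noradrenergic3 (-0.62 and -0.68, adjusted p of 0.0032 and 0.00073) and higher against Noradrenergic4 and Noradrenergic5 (0.94 and 0.98, adjusted p of 0.00071 and 0.0014), and it was at 0.12 with the 5 identities weighted equally. Chga was lower against Noradrenergic3 (-0.86, adjusted p = 1.3e-06) and higher against Noradrenergic1, Noradrenergic4 and Noradrenergic5 (1.94, 0.74 and 1.26, adjusted p of 8.0e-08, 0.013 and 1.6e-05). Scg2 was lower against Noradrenergic3 and Noradrenergic5 (-0.55 and -0.94, adjusted p of 0.0056 and 2.5e-06) and was not called against the other identities. In the pooled comparison the Chga call was lost without chip 1772099-228, P30 female, P33 female or P29 male, and the Gal call without that chip, P31 female or P29 male. The Chga, Chgb and Gal calls were also lost with DESeq2 and in cells of 15000 to 35000 counts.

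Npy (chromosome 6, 49822710 to 49829507) stood at 97.5, 62.1, 116, 82.8 and 73.1 against 95.7, 97.7, 139, 114 and 119. It was lower in 4 of 5 collections, P30 females being the exception, and fell by 0.49 on the log2 scale (SE 0.077, adjusted p = 7.2e-08). Npy differs widely between the noradrenergic identities, from 6.27 in Noradrenergic5 and 17.2 in Noradrenergic4 to 128.2 in Noradrenergic3 and 153 in Noradrenergic2, and lay at 89.9 over all unclassified cells. With the 5 identities weighted equally Npy was at 1.37 (adjusted p = 0.133), and Gal, another peptide co-transmitter, at 1.28 instead of -0.32. Against Noradrenergic5 both were called higher, Npy by 4.94 (adjusted p = 0.0048) and Gal by 4.81 (adjusted p = 0.0029), and neither was called against the other 4 identities. In cells of 15000 to 35000 counts Npy was at 0.12 (adjusted p = 1.0). Scg2 did not change sign under any of the 18 alternatives, though its call was lost in 2 of them.

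General neuronal genes were little changed gene by gene. Of 21 pan-neuronal genes 1 was called lower, the ubiquitin hydrolase Uchl1 (-0.26, adjusted p = 0.041, a call lost without chip 1772099-228 and without any collection other than P30 female), and 20 were not called, with a list median of -0.12. Of 17 synaptic vesicle genes and 6 nicotinic receptor subunits, 0 were called (edgeR; medians -0.15 and -0.22), and Snap25 was at -0.15 (adjusted p = 0.475). The summed pan-neuronal level was nevertheless lower in unclassified cells on 18 of 18 chips by median, with overall medians of 317.7 and 343.3 counts per 10000, and 13 of 85 cells lay below the 5th percentile of noradrenergic cells (292.9).

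Of 6 neurofilament and related genes tested, 2 were called lower (Nefm and Nefl), 1 higher (Vim) and 3 were not called, and the summed level of the list was higher in unclassified cells on 12 of 18 chips by median. Nefm stood at 1.49, 3.22, 3.65, 3.27 and 2.22 against 3.32, 3.73, 4.31, 4.33 and 4.95, lower in each pair (-0.57, SE 0.11, adjusted p = 4.6e-05), and Nefl fell by 0.46 (SE 0.12, adjusted p = 0.0075). Nefm was called lower against Noradrenergic2 and Noradrenergic3 (-0.85 and -0.63, adjusted p of 7.9e-06 and 0.0031), and was at 0.38 and 0.40 against Noradrenergic4 and Noradrenergic5 (adjusted p of 0.455 and 0.546). The Nefl call was lost without P31 female, P33 female or P29 male. Both the Nefm and the Nefl call were lost in thinned cells and in cells of 15000 to 35000 counts. Vim (vimentin), the filament gene of glia and progenitors, stood at 1.78, 2.44, 2.43, 2.11 and 2.50 against 1.71, 1.07, 0.938, 1.33 and 1.5, without overlap (0.80, SE 0.13, adjusted p = 1.8e-07). Among 11 receptors for neurotrophic factors and cytokines, Ret, the receptor tyrosine kinase for ligands of the GDNF family, was called lower (-0.54, SE 0.15, adjusted p = 0.013); its call was lost without P31 female, P33 female or chip 1772099-228, and against Noradrenergic3 alone it was at 0.04.

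Other cell components moved in small steps. Of 20 nuclear-encoded respiratory chain genes 4 were called lower (Ndufb8, Ndufv1, Cox4i1 and Atp5b) and 0 higher, all 20 log2 fold changes were below 0, and the median was -0.25. Each of these 4 calls was lost without chip 1772099-228, P33 female or P29 male. Each was also lost with DESeq2, in thinned cells and in cells of 15000 to 35000 counts. Suclg1, a subunit of succinyl-CoA ligase, fell by 0.61 (SE 0.14, adjusted p = 0.00098), at 0.996, 1.31, 1.63, 1.31 and 1.29 against 1.78, 1.95, 1.97, 2.0 and 2.0, without overlap. Its log2 fold change ran from -0.71 to -0.49 over the 18 alternatives. The Suclg1 call was lost with DESeq2, in thinned cells and in cells of 15000 to 35000 counts. Ppa1, the cytosolic pyrophosphatase, fell by 0.58 (SE 0.13, adjusted p = 0.0012), also without overlap. The Ppa1 call was lost without P33 female, with identities weighted equally and in the settings that lost the Suclg1 call.

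Of 7 nuclear-retained non-coding RNAs, 2 were called higher and 0 lower. Malat1 stood at 240, 304, 239, 233 and 271 against 245, 192, 152, 190 and 192, higher in 4 of 5 collections (0.34, SE 0.075, adjusted p = 0.0011), a call lost without P33 female. Neat1 was at 0.74 (adjusted p = 0.0068), lost without P29 male or P38 male. Of 39 ribosomal protein genes 2 were called higher, Rpl13 and Rps29, with a list median of 0.11, and the Rps29 call was lost without chip 1772099-228, P33 female, P29 male or P38 male. Such genes have many processed copies, so their counts are uncertain.

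**Figure D5:**
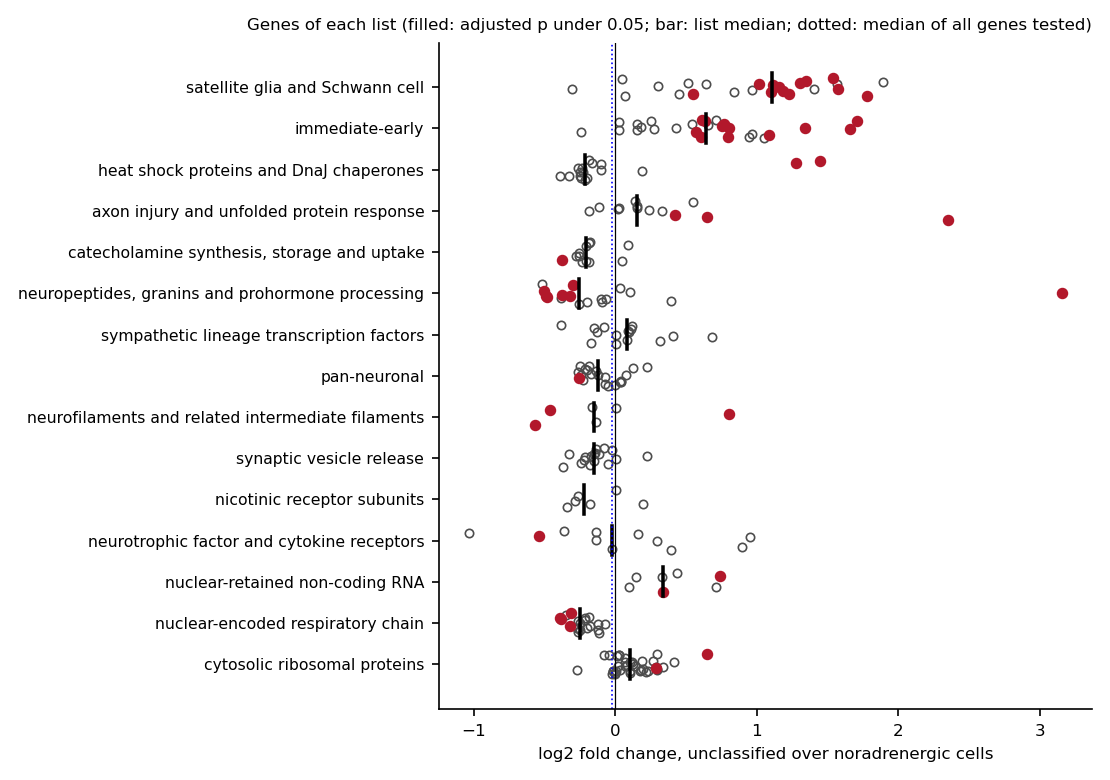
Log2 fold change of unclassified over noradrenergic cells for the genes of 15 lists, with filled points for genes called at an adjusted p under 0.05, black bars at list medians and a dotted line at the median of all genes tested (-0.02). The glial and immediate-early lists have medians of 1.11 and 0.64, and the catecholamine and respiratory chain lists -0.21 and -0.25.

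Markers of other neuron types were sparse. Slc17a6 and Calca, which mark glutamatergic and sensory neurons, were detected in 0 of 85 unclassified cells, which allows a share of up to 3.53% of cells with a count, and Slc17a6 was also detected in 0 noradrenergic cells. The acetylcholine transporter gene Slc18a3 was detected in 7 unclassified cells, Chat in 4 and the choline transporter gene Slc5a7 in 9, against 6, 3 and 24 noradrenergic cells. The peptide gene Vip (chromosome 10, 5639218 to 5647617), high in Ach1 and Ach2 cells (96.8 and 66.8 counts per 10000), was called at 3.16 (SE 0.26, adjusted p = 2.0e-30), but its 227 counts in unclassified cells came mostly from 4 cells with 94, 60, 26 and 24. Those 4 cells were from P31 females and P29 males, and Vip was higher in 3 of 5 collections.

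The 2 unclassified cells nearest to Ach2 differed from each other. The cell from P31 females (22544 counts) held 94 Vip counts, with 8 for Th, 37 for Dbh, 31 for Slc6a2 and 2 for Chat. The cell from P33 females (12308 counts, on chip 1772099-228) held 2 counts of Vip, 1 of Th, 10 of Dbh, 28 of Fabp7, 13 of Apoe and 22 of Fos. Leaving both out gave 170 genes higher and 142 lower.

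Non-neuronal cells other than glia left few counts. Of 12 macrophage and leukocyte genes 1 was tested and not called, with a per-cell sum of 0 to 5.63 counts per 10000 in unclassified cells and 0 to 3.07 in noradrenergic cells. C1qa was at 0 in all 85 cells and Csf1r had 1 count. Of 8 fibroblast genes tested 0 were called higher and Col1a1 was called lower, from 8 counts, with its highest level (0.859) in noradrenergic cells of P30 females; that call was lost without P30 female, P31 female or P29 male. The fibroblast sum ran from 0 to 19.4, with a median of 2.08 against 1.81. Of 7 endothelial genes tested Emcn alone was called, from 22 counts in 4 cells (lost without chip 1772099-228, P33 female or P29 male), and of 4 mural genes tested 0 were called (edgeR). Pnmt, the adrenaline-forming enzyme of chromaffin cells, was at 0 in all 85. Of 3 cell cycle genes tested 0 were called. What part other cell types have in the glial counts of the unclassified cells was not tested. No doublet caller was run; the labels' protocols state that each capture site was checked under the microscope for a lone, healthy cell.

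Against each identity separately, in a fit with a library for every identity and collection, 144 of 11640 genes were called against Noradrenergic1 (1.24%), 367 against Noradrenergic2 (3.15%), 131 against Noradrenergic3 (1.13%), 244 against Noradrenergic4 (2.1%) and 217 against Noradrenergic5 (1.86%). The share called higher was 0.782%, 2.1%, 0.954%, 1.49% and 1.14% in that order, and the share called lower 0.455%, 1.05%, 0.172%, 0.601% and 0.722%. These contrasts share the unclassified libraries, and the numbers of cells differ between identities, so the counts are not ranked. Hes1 was higher against all 5, by 1.8 to 2.36 (adjusted p from 1.2e-11 to 0.0127). Jun was called against Noradrenergic2, Noradrenergic3 and Noradrenergic4 (0.76, 0.90 and 1.1), and was at 0.22 against Noradrenergic1 and 0.54 against Noradrenergic5 (adjusted p of 0.781 and 0.242).

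Th was not called against any of the 5, with log2 fold changes from -0.20 to 0.14. Slc6a2 was called lower against Noradrenergic4 alone (-0.64, SE 0.14, adjusted p = 0.00033). Ret was lower against Noradrenergic4 (-1.5, adjusted p = 4.7e-10) and Noradrenergic2 (-0.89, adjusted p = 0.00026), and at 0.04 against Noradrenergic3. Clu (clusterin, an extracellular chaperone) was lower against Noradrenergic2, Noradrenergic4 and Noradrenergic5 (-0.96, -0.87 and -1.30) and at 0.20 against Noradrenergic3 (adjusted p = 0.907). Against Noradrenergic3, the identity most unclassified cells were nearest to, genes among the highest by the naming rule were Cxcl10, Cyr61, Hes1 and Gpm6b (1.57 to 1.96), and the 5 lowest were Chga, Plscr1, Chgb, Nefm and Ppa1 (-0.86 to -0.61).

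Cells past the noradrenergic range were a mixed set. Of 85 unclassified cells, 38 were above the 95th percentile for glial or immediate-early genes, 10 of them for both, and 47 for neither. Of the 22 cells with a high glial sum 1 had a low catecholamine sum and 3 a low pan-neuronal sum; of the 26 with a high immediate-early sum these numbers were 3 and 9. A further count took cells with neither a high glial or immediate-early sum nor a low catecholamine or pan-neuronal sum, and 43 cells met it. The other end of each of the 4 ranges was not used. A low catecholamine sum was found in 5 cells, 3 of them from P31 females, and in 2 of these 5 the pan-neuronal sum was low too.

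Whether the unclassified difference itself changed with sex was tested in the 5 collections (3 female and 2 male). Of 11659 genes 2 were called (0.0172%), Atpaf2 and Cntn5, both with a more negative unclassified difference in males, and 354 had an unadjusted p under 0.05. Sex and age cannot be told apart in this design. With chips as replicates, 3 genes were called, of which Atpaf2 was shared.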

How the data were processed

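The deposited table holds whole-number counts for 16892 genes (704 with no count in any cell) in 298 cells; 0 columns were without a sample and 0 columns were identical. The build was mm10, per the submitters' processing notes. The aligner, the counting program, the annotation, strandedness and whether reads or molecules were counted are not given in the sources used here. Gene positions are from GENCODE M21 (GRCm38), and promoters from RefSeq (GRCm38.p6).

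The members and gene lists were chosen with earlier results of these data known. Counts were summed per collection over Unclassified and over Noradrenergic1 to 5 cells. Genes with at least 20 counts and a count in 3 libraries entered a robust quasi-likelihood fit in edgeR 4.0.16 (TMM scaling, two-sided, R 4.3.3); DESeq2 1.42.0 was an alternative. Over 6175 genes, the 2 libraries of a collection correlated in their deviations from group means at -0.0059 to 0.31, against -0.042 over 20 pairs from different collections; the collection was kept as a block because the labels give each cell's sex and age. On simulated counts of 11389 genes for this comparison the test recovered 77% of 2-fold and 99% of 4-fold changes and called 0.0447% of unchanged genes. Changes were planted only in genes with a mean fitted count above 20 per library, so the recovery rates do not cover genes at lower levels. The simulated counts were drawn with the fit's own dispersions.

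Named genes were the 15 highest and 15 lowest called genes with 1 direction in all 5 collections and a level of at least 1 count per 10000, cell type markers, up to 4 called members of each list, a fixed set of identity and stress genes, and 5 each way from the contrast with Noradrenergic3. Other genes named beside a list's count were added after their values were seen. Thinning to 10000 counts left out 3 unclassified and 1 noradrenergic cell. In identity contrasts a library held at least 2 cells. Intervals are 95% exact binomial and cover counting error only, and a share of 0 allows up to 3 counts of the total. Alternatives comprised other normalizations, filters and tests, leaving out each collection or chip 1772099-228, chips as replicates (at least 3 cells of each kind), thinning, Noradrenergic3 alone and equal weights; 2 were added after seeing the data (cells of 15000 to 35000 counts, and leaving out the cells nearest to Ach2). Some named genes are not reported here.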

Additional observations from a re-analysis of the deposited data

Results flagged for a closer look

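Over the 5 collections, 41 groups of values, most of them of genes named in the text, were checked for a collection far from the others, and chance flags about 1 in 20. In unclassified cells 3 were found. Th was lowest in P31 females, at 18.5 counts per 10000 against 24.6 to 26.1 in the other 4. Slc18a2 was highest in P38 males, at 16.1 against 11.5 to 12.8, while noradrenergic cells of P38 males were also the highest, at 15.8. Cyr61 was highest in P29 males, at 4.07 against 1.79 to 2.29.

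The unclassified difference of 2 genes differed between sexes in the interaction test. For Atpaf2, an assembly factor of ATP synthase, the log2 difference in males minus that in females was -2.09 (SE 0.42, adjusted p = 0.0231). Levels of Atpaf2 were 0.617 and 0.357 in unclassified and 1.27 and 1.40 in noradrenergic cells of the 2 male collections. Among females they were 1.58 against 0.326 in P33, 0.285 against 0.282 in P30 and 0.587 against 0.711 in P31. P33 females alone thus showed a clear rise, and P31 females went the same way as males. For Cntn5, a contactin, the log2 difference in males minus that in females was -2.18 (SE 0.47, adjusted p = 0.0248). Levels of Cntn5 were higher in unclassified cells in 3 of 3 female collections and lower in 2 of 2 male ones. With chips as replicates the adjusted p was 0.0411 for Atpaf2 and 0.303 for Cntn5.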

How the results depend on the processing

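The main counts were 168 genes higher and 130 lower. They were 180 and 70 with RLE size factors, 59 and 8 with DESeq2, 142 and 65 with filterByExpr, 137 and 165 without a low-count filter, 158 and 99 with 7 collections, 127 and 186 with chips as replicates, 79 and 39 without chip 1772099-228, 58 and 35 in thinned cells, 24 and 1 in cells of 15000 to 35000 counts, 138 and 79 against Noradrenergic3 alone, and 259 and 12 with identities weighted equally, where the median of all genes shifted to 0.15. Without the replicate block they were 81 and 10. Leaving out a collection gave 60 (without P33 female) to 231 (without P30 female) higher and 29 to 194 lower, with 77 and 53 without P31 female and 104 and 43 without P29 male. Under all 18 alternatives 13 higher and 0 lower genes were called. Of 28 named genes called lower, 3 kept the call with DESeq2, 6 in thinned cells and 0 in cells of 15000 to 35000 counts. Of 35 named genes called higher, 25, 22 and 11 kept it in these settings. Calls against an identity ran, leaving out a collection, from 58 to 155 for Noradrenergic1, 163 to 445 for Noradrenergic2, 55 to 177 for Noradrenergic3, 139 to 261 for Noradrenergic4 and 70 to 271 for Noradrenergic5; with at least 3 cells per library Noradrenergic1 gave 12.

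With identities weighted equally Chga (0.69), Chgb (0.12), Gal (1.28), Npy (1.37) and Plscr1 (0.75) changed sign; against Noradrenergic3 alone Clu (0.16) and Ret (0.042) did, and in cells of 15000 to 35000 counts Npy (0.12). For total counts the difference over 5 collections was -0.69, for genes per cell -0.28, and for genes per cell after thinning 0.0304; the likeness difference ran from -0.13 to -0.096 without 1 collection, where p was 0.0625 except without P30 female. Shares past the 99th percentile were 9.41% (glial) and 7.06% (immediate-early). The cause of these changes was not tested.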

Other observations

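Genes that were called higher under every alternative but stand on no list were looked at after their values were seen. Phgdh, the first enzyme of serine synthesis, rose by 1.69 (SE 0.24, adjusted p = 1.7e-09), higher in 5 of 5 collections, and Ctnna1, an alpha-catenin of adherens junctions, by 1.62 (SE 0.29, adjusted p = 4.7e-06). Lpar1, a receptor for lysophosphatidic acid, rose by 1.31 (adjusted p = 8.8e-07), higher in 4 of 5, and Abca8a, a lipid transporter, by 1.28 (adjusted p = 3.0e-08). The RNA-binding proteins Zfp36l1 and Qk rose by 1.67 and 1.23 (adjusted p of 1.3e-07 and 2.4e-05). All 6 had levels under 1 count per 10000 in unclassified cells.

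The ratio of Apoe to Fabp7 counts varied between collections in both kinds of cell. In unclassified cells it was 1.88 in P30 females, 1.62 in P31 females, 0.819 in P33 females, 1.68 in P29 males and 5.42 in P38 males. In noradrenergic cells it was 1.26, 1.18, 1.21, 2.17 and 15.1, so P38 males had the highest ratio in both. The differences were not tested.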
